A study of Mus musculus with 8 samples.

Results

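Immediate early response genes are genes that cells transcribe within minutes of a stimulus without first making new protein. The genes described here were 10 of the 22609 in the count tables, chosen by symbol as fast-induced transcription factors and a phosphatase sensitive to stress and to dissection: Fos, Fosb, Jun, Junb, Egr1, Atf3, Ier2, Klf4, Dusp1 and Nr4a1. All 10 passed the filter on low counts, which left 13944 genes to be tested for a difference with age. The RNA came from the kidney cortex of untreated male C57BL6 mice, 4 aged (30 months) and 4 young (5 months), with 1 library per mouse. These ages are those of the labels, and the study's methods give a somewhat higher mean age for the aged mice. All 8 mice shared strain, sex and tissue, and each mouse gave a single dissected sample, so no measurement before the dissection stands beside these levels. The study asked which kidney mRNAs change with age, and the comparison of aged with young mice for these genes is described below together with their spread between mice of the same age.

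In resting tissue these genes are mostly quiet, and growth factors, injury, low oxygen or handling switch them on through MAP kinases that act on the serum response factor with its ternary complex partners, and through CREB. Their messages are short lived. FOS and JUN proteins pair to form the AP-1 factor, EGR1, KLF4 and NR4A1 bind their own DNA sites, and DUSP1 is a phosphatase that switches the MAP kinases off again. In the kidney they are known for their rapid rise after ischemia and other tubule injury.

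The counts on genes summed to 14820804 to 19018543 read pairs per aged library and to 15152597 to 19821429 per young library. Levels are given as CPM, a gene's count per 1000000 counts, on library sizes scaled by TMM, a factor that aligns the bulk of the genes between libraries, and 3 counts corresponded to 0.147 to 0.204 CPM. The tissue label was checked against marker lists of tubule segments, podocytes, vessels, stroma and leukocytes, all of which were detected. On the red blood cell list, the globin genes Hbb-b1, Hba-a1 and Hba-a2 were listed at 0 in all 8 libraries. The other gene of that list, Alas2, was at 7.09 to 19.9 CPM in the aged and 12.2 to 27.2 CPM in the young mice. Why the globin genes were at 0 was not tested. Aged mouse 1 stood apart from the other 7, at -71.5 on a first principal component that held 48.1% of the variance, against -16.3 to 26.2. In that mouse the 6 proximal tubule markers (Lrp2, Cubn, Slc34a1, Slc5a2, Slc22a6 and Aqp1) summed to 9006 CPM, against 18493 to 21570 in the other aged and 19014 to 22815 in the young mice. In bulk tissue, fewer cells of a type and less RNA per cell cannot be told apart. Its summed markers of thick ascending limb, collecting duct, endothelium and smooth muscle were the highest of the aged mice. Single markers were mixed. Aged mouse 1 was the highest aged mouse in 2 of 4 thick ascending limb, 1 of 6 collecting duct, 3 of 6 endothelium and 3 of 4 smooth muscle markers. Its collecting duct sum, 474 CPM against at most 471 in the other aged mice, rested on Aqp2, at 271 CPM against 91.0 to 138. Its sums for distal convoluted tubule, macrophages and lymphocytes were the lowest of the aged mice. Across all marker lists, Csf1r of macrophages was called lower and Igj of lymphocytes higher in aged mice. Csf1r went against its list, where 5 of the 6 macrophage markers had a positive change and the median log2 fold change was 0.26. All 6 lymphocyte markers tested had a positive change. The share of read pairs in aged mouse 1 on no annotated gene was the highest, at 29.9% against 22.6% to 29.0% in the other aged and 19.95% to 25.1% in the young mice. Each result that rests on aged mouse 1 is therefore given with and without it.

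The promoter windows of most of these genes shared a short element. The 250 bases before the RefSeq start (build GRCm38.p6) were found for 8 of the 10 genes, all but Egr1 and Ier2. They were searched on both strands for sites of the factors named above. The letters TGACG, the core of the site that CREB and ATF proteins bind, were in 7 of those 8 windows (Fos, Fosb, Junb, Atf3, Klf4, Dusp1 and Nr4a1) and in 17.8% of all 32851 promoter windows of the same length. The full palindrome TGACGTCA, which holds TGACG on each strand and so counts also as a pair of overlapping TGACG matches, was in Dusp1 and in 1.55% of all windows. The EGR site GCGNGGGCG was in Fosb, Klf4 and Nr4a1 and in 4.70% of all windows. TATAAA was in Fos and in 7.59% of all windows. Neither the CArG box of the serum response factor nor the AP-1 site TGANTCA was in any of the 8 windows, against 1.47% and 6.75% of all windows. Sites with other letters, or farther than 250 bases before the start, could not be found, so these genes may still have such sites. Jun, whose window held none of these letters, was the exception among the 8. The 8 windows were 58.4% (Fos) to 74.4% (Nr4a1) G and C, and the shares over all windows were not matched for this. A match is a description of the letters and not a measurement of binding. The windows of Fos and Fosb, the most variable of the 8 genes between mice, and of Dusp1 and Nr4a1, with the most matches, are shown from 5′ to 3′ in the direction of transcription, with TGACG or its reverse complement in capitals.
Fos, chr12:85473640-85473889, strand +: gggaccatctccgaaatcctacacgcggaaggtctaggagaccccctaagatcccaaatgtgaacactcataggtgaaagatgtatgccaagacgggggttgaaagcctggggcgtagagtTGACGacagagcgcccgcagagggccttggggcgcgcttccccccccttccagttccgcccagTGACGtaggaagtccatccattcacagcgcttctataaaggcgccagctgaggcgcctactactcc
Fosb, chr7:19310046-19310295, strand -: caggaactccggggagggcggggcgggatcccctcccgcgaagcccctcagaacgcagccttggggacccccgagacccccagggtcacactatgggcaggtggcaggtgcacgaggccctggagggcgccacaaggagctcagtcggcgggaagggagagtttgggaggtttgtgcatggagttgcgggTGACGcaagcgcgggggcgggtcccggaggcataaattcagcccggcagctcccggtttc
Dusp1, chr17:26508473-26508722, strand -: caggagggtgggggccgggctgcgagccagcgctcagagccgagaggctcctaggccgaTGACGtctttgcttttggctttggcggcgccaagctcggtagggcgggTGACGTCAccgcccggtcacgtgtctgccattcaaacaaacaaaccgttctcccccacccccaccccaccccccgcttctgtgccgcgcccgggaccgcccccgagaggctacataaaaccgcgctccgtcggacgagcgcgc
Nr4a1, chr15:101266596-101266845, strand +: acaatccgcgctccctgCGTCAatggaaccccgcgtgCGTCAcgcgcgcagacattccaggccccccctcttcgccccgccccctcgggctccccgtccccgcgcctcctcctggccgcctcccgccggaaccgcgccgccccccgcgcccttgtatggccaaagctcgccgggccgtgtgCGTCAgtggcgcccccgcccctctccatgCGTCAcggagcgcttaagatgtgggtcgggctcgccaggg
In Fos the matches began 129 and 66 bases before the start, and TATAAA lay 33 to 28 bases before it. In Fosb the single match began 60 bases before the start, next to an EGR site that began at 50 bases. The palindrome of Dusp1 lay 143 to 136 bases before the start. In Nr4a1 the 4 matches were all on the opposite strand.

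None of the 10 genes was called different between aged and young mice. A gene was called at an edgeR quasi-likelihood p, adjusted by Benjamini-Hochberg over all genes tested, below 0.05 with a fold change above 1.5. By that rule 287 genes were called, which is 2.06% of the genes tested, with 1.17% higher and 0.889% lower in aged mice. DESeq2 and limma-voom also called 0 of the 10, though DESeq2 gave no adjusted p for Fosb. Of the 10 genes 1, Egr1, had an unadjusted edgeR p under 0.05. The CPM values of the groups overlapped in all 10 genes, whereas they did not overlap in 18.9% of all genes tested. The fitted change was positive in 6 and negative in 4 of the genes, with a median log2 fold change of 0.08 against 0.03 over all genes tested. In 6 of the 10 genes (Fos, Fosb, Jun, Junb, Ier2 and Nr4a1) leaving out a single mouse turned the sign of the change, whereas Egr1, Atf3, Klf4 and Dusp1 kept theirs with any single mouse left out.

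**Figure D1:**
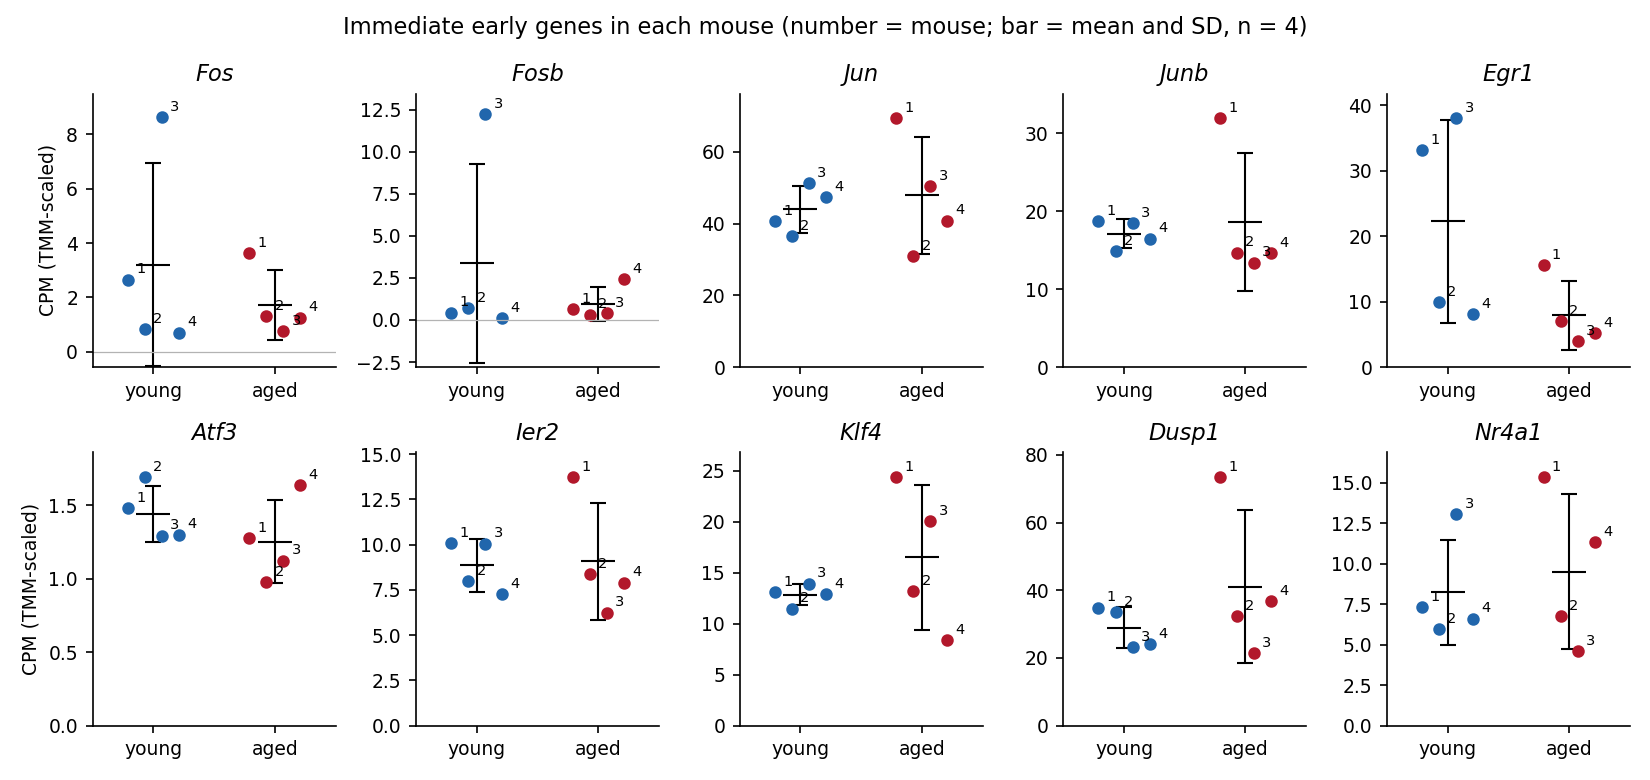
CPM on TMM-scaled library sizes (linear axes) of the 10 immediate early genes in each of 4 young (blue) and 4 aged (red) mice, with the mouse number beside each point and bars for the mean and SD. Aged mouse 1 is the highest aged mouse in 8 panels, and young mouse 3 stands at 12.2 CPM of Fosb against at most 0.688 in the other young mice.

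Fos and Fosb encode the FOS subunits of AP-1, which must pair with a JUN protein to bind DNA. Exon counts given here and below are those left after merging overlapping exons of all transcripts of a gene, so a single transcript can have more. Fos (mm9 chr12:86814840-86818223, plus strand, 4 exons) was at 3.63, 1.30, 0.748 and 1.25 CPM across aged mice 1 to 4 and at 2.65, 0.846, 8.64 and 0.709 CPM across young mice 1 to 4. The high values were in young mouse 3 and then in aged mouse 1, and the remaining 6 mice ranged over both groups. The aged mean of Fos was 1.73 ± 1.29 CPM (SD, n = 4) against a young mean of 3.21 ± 3.72 CPM (SD, n = 4), and aged over young gave a log2 fold change of -0.86 (SE 0.81, edgeR adjusted p = 0.524). Without young mouse 3 it became 0.32 (adjusted p = 0.801), since the other 3 young mice averaged 1.40 CPM. Fosb (chr7:19888070-19895394, minus strand, 4 exons) had low counts, with 13, 5, 8 and 45 read pairs across aged mice 1 to 4 and with 7, 13, 180 and 2 across young mice 1 to 4. In CPM this was 0.638, 0.325, 0.428 and 2.45 in the aged and 0.431, 0.688, 12.2 and 0.118 in the young mice. A single young mouse and a single aged mouse thus carried most of the Fosb message, and young mouse 4, with 2 counts, was under the 3 counts taken as the floor. Young mouse 3 had 29.7 times the mean CPM of the other young mice for Fosb and 6.16 times for Fos. The aged mean of Fosb was 0.961 ± 1.00 CPM (SD, n = 4) against a young mean of 3.37 ± 5.92 CPM (SD, n = 4). The fitted log2 fold change was -1.77 (SE 1.26, edgeR adjusted p = 0.390), and it turned to 1.19 (adjusted p = 0.444) without young mouse 3 and went to -2.80 (adjusted p = 0.245) without aged mouse 4.

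Jun and Junb encode the JUN subunits, which can bind DNA as pairs of JUN proteins or with a FOS protein, and both are genes of 1 exon. Jun (chr4:94715725-94718913, minus strand) was at 69.3, 31.0, 50.4 and 40.9 CPM across aged mice 1 to 4 and at 40.7, 36.6, 51.2 and 47.3 CPM across young mice 1 to 4. The young values lay within the range of the aged ones. Its log2 fold change was 0.13 (SE 0.23, edgeR adjusted p = 0.748) and -0.11 (adjusted p = 0.732) without aged mouse 1. Junb (chr8:87500811-87502617, minus strand) was at 31.9, 14.7, 13.4 and 14.7 CPM in the aged and at 18.7, 14.9, 18.5 and 16.5 CPM in the young mice. Aged mouse 1 was above all young mice for Junb and the other 3 aged mice were below all of them. The log2 fold change was 0.13 (SE 0.27, edgeR adjusted p = 0.791) with all 8 mice and -0.26 (adjusted p = 0.165) without aged mouse 1. Neither subunit was called in either fit.

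Atf3, which encodes a CREB-family repressor and activator that is widely used as a marker of cell stress, was low and even. It lies at chr1:192994175-193007219 on the minus strand, with 4 exons. Aged mice 1 to 4 gave 26, 15, 21 and 30 read pairs and young mice 1 to 4 gave 24, 32, 19 and 22, or 1.28, 0.976, 1.12 and 1.63 CPM and 1.48, 1.69, 1.29 and 1.30 CPM. No mouse stood out, and the highest aged mouse was mouse 4 and not mouse 1. The aged mean was 1.25 ± 0.283 CPM (SD, n = 4) against a young mean of 1.44 ± 0.189 CPM (SD, n = 4) (log2 fold change -0.20, SE 0.23, edgeR adjusted p = 0.608). In young mouse 3, which had the highest Fos and Fosb of all mice, Atf3 was level with that of young mouse 4 at the low end of the young range.

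Egr1, a zinc finger factor and a standard readout of MAP kinase and serum response factor signaling, had the smallest p of the 10 genes. It lies at chr18:35020861-35024638 on the plus strand, with 2 exons. It was at 15.6, 7.02, 3.96 and 5.18 CPM across aged mice 1 to 4 and at 33.2, 9.94, 38.0 and 8.09 CPM across young mice 1 to 4. The young mice fell into 2 high (mice 1 and 3) and 2 low (mice 2 and 4) values, and aged mouse 1 lay between them. The aged mean was 7.94 ± 5.27 CPM (SD, n = 4) against a young mean of 22.3 ± 15.5 CPM (SD, n = 4). Its log2 fold change of -1.48 (SE 0.59) had an unadjusted edgeR p of 0.0345 and an adjusted p of 0.164, so the difference did not pass. Without aged mouse 1 the groups no longer overlapped, with all 3 aged mice below all 4 young mice, and the log2 fold change was -2.05 (edgeR adjusted p = 0.0711). In that fit 3.17% of genes were called and the groups did not overlap in 23.9% of genes. Without young mouse 3 the log2 fold change was -1.10 (edgeR adjusted p = 0.348). Egr1 kept its negative sign in all 18 alternatives run, with adjusted p between 0.0711 and 0.348.

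Klf4, a zinc finger factor of epithelial differentiation and of reprogramming, and Nr4a1, an orphan nuclear receptor known as Nur77, were both highest in aged mouse 1. Klf4 (chr4:55540013-55545347, minus strand, 5 exons) was at 24.4, 13.2, 20.1 and 8.39 CPM across aged mice 1 to 4 and at 13.1, 11.5, 13.9 and 12.9 CPM across young mice 1 to 4. The young mice lay close together, and the aged mice lay on both sides of them. The aged mean of Klf4 was 16.5 ± 7.12 CPM (SD, n = 4) against a young mean of 12.9 ± 1.03 CPM (SD, n = 4) (log2 fold change 0.37, SE 0.29, edgeR adjusted p = 0.436). The log2 fold change was 0.58 (edgeR adjusted p = 0.1002) without aged mouse 4 and 0.12 (adjusted p = 0.808) without aged mouse 1. Nr4a1 (chr15:101097277-101105223, plus strand, 7 exons) was at 15.4, 6.76, 4.60 and 11.3 CPM in the aged and at 7.34, 5.98, 13.1 and 6.62 CPM in the young mice. The 3 mice above 10 CPM were aged mice 1 and 4 and young mouse 3, the same mice that were highest in Fos or Fosb. Its log2 fold change was 0.21 (SE 0.39, edgeR adjusted p = 0.750), and -0.12 (adjusted p = 0.868) without aged mouse 1.

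Ier2, a small nuclear protein named for its early induction, gave the smallest change of the 10 genes. It lies at chr8:87185230-87186751 on the minus strand in 1 exon, and it was at 13.8, 8.39, 6.25 and 7.90 CPM across aged mice 1 to 4 and at 10.1, 7.99, 10.1 and 7.27 CPM across young mice 1 to 4. The aged mean was 9.07 ± 3.25 CPM (SD, n = 4) against a young mean of 8.86 ± 1.45 CPM (SD, n = 4), and the log2 fold change was 0.04 (SE 0.24, edgeR adjusted p = 0.932). Without aged mouse 1 it was -0.24 (adjusted p = 0.405).

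Dusp1, the phosphatase that ends MAP kinase signaling, was among the most abundant of the 10 genes and had the highest fitted change among those that were positive. It lies at chr17:26642535-26645464 on the minus strand, with 2 exons after those of its 3 transcripts were merged. It was at 73.5, 32.3, 21.4 and 36.9 CPM across aged mice 1 to 4 and at 34.9, 33.6, 23.2 and 24.2 CPM across young mice 1 to 4. Aged mouse 1 was far above the rest, and young mouse 3, so high in Fosb, was the lowest young mouse. The log2 fold change was 0.50 (SE 0.34, edgeR adjusted p = 0.367), and 0.06 (adjusted p = 0.886) without aged mouse 1. Dusp1 is also a known target of glucocorticoids.

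Per length of merged exons, Dusp1, Jun and Junb led and Fos, Fosb and Atf3 trailed in both groups. These lengths join all GENCODE transcripts of a gene (3 transcripts and 2697 bases for Dusp1), whereas the counts were made on RefSeq genes. Where the transcript in use is shorter than the merged length, the FPKM is too low. The order between genes therefore holds for these lengths only. In FPKM, which is CPM divided by the exon length in kilobases, the aged means were 15.2 ± 8.38 for Dusp1, 15.0 ± 5.12 for Jun and 10.3 ± 4.90 for Junb (SD, n = 4 for each value in FPKM). They were followed by 5.96 ± 2.13 FPKM for Ier2, 5.40 ± 2.33 for Klf4, 3.85 ± 1.94 for Nr4a1 and 2.56 ± 1.70 for Egr1. The lowest aged means were 0.737 ± 0.549 FPKM for Fos, 0.631 ± 0.143 for Atf3 and 0.256 ± 0.267 for Fosb. Of the neighbours in that order, Egr1 and Fos, and Atf3 and Fosb, lay farther apart than the larger of their SDs, and the other neighbours did not. In young mice the order was Jun with 13.8 ± 2.05 FPKM, Dusp1 with 10.7 ± 2.27, Junb with 9.49 ± 1.01 and then Egr1 with 7.19 ± 5.00. Below them were Ier2 with 5.82 ± 0.954 FPKM, Klf4 with 4.20 ± 0.335, Nr4a1 with 3.33 ± 1.32, Fos with 1.37 ± 1.58, Fosb with 0.898 ± 1.58 and Atf3 with 0.726 ± 0.0951. The steps from Jun to Dusp1, from Ier2 to Klf4 and from Nr4a1 to Fos exceeded the larger SD of the pair in young mice. Egr1 held the fourth place in young and the seventh in aged mice, but without young mouse 3 its mean of 5.51 FPKM was just below that of Ier2 at 5.55. In that case Fos (0.596 FPKM) and Fosb (0.110 FPKM) also lay below Atf3 (0.751 FPKM). Among the aged mice without mouse 1, Jun (12.8 FPKM) stood above Dusp1 (11.2 FPKM) and Atf3 (0.627 FPKM) above Fos (0.468 FPKM).

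**Figure D2:**
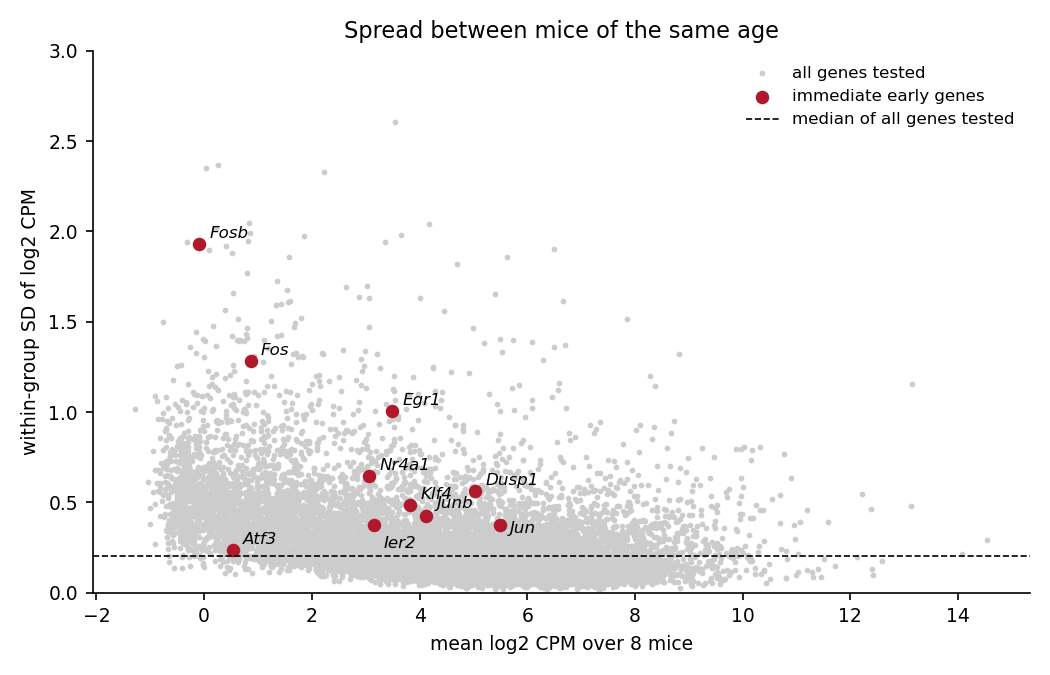
Within-group SD of log2 CPM, pooled over both age groups, against mean log2 CPM over the 8 mice, with a gray point for each of 13944 genes tested, red points for the 10 immediate early genes and a dashed line at the median of 0.21. Fosb, Fos and Egr1 lie near the upper edge, at SDs of 1.93, 1.28 and 1.01, and Atf3 lies close to the median line at 0.24.

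Most of the 10 genes spread widely between mice of the same age. The SD of log2 CPM within a group, pooled over both groups, had a median of 0.53 over the 10 genes and of 0.21 over all genes tested. Fosb (1.93), Fos (1.28) and Egr1 (1.01) were above 99.9%, 99.4% and 98.4% of all genes tested, and Nr4a1 (0.64) and Dusp1 (0.56) also exceeded the 90th percentile of 0.54. Klf4 (0.49), Junb (0.43), Jun (0.38) and Ier2 (0.37) followed, and Atf3 (0.24) was ordinary, above 57.5% of genes. Atf3, with 15 to 32 counts per mouse, spread far less than Fos, with 12 to 127. The 2 age groups spread differently from gene to gene. The log2 SD of Klf4 was 0.68 among aged and 0.12 among young mice, and that of Junb was 0.58 and 0.16. Fos and Fosb went the other way, with 0.89 and 1.14 among aged and 1.58 and 2.48 among young mice. Whether the spread differs between ages was not tested. Without aged mouse 1, Junb had an SD of 0.13, above 36.6% of genes, Dusp1 one of 0.35, above 83.4%, and Ier2 one of 0.23, above 67.2%, while Fos, Fosb and Egr1 were at 1.25, 2.11 and 0.92, above 99.7%, 99.98% and 99.02% of genes. Without young mouse 3, Fosb was at 1.05, Fos at 0.91 and Egr1 at 0.95, above 98.2%, 97.2% and 97.5% of genes.

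Aged mouse 1 was the highest of the aged mice in 8 of the 10 genes, all but Fosb and Atf3, whereas it was the highest in 33.7% of all genes tested. Its level was 3.30 times the mean of the other aged mice for Fos, 2.90 times for Egr1, 2.43 times for Dusp1, 2.24 times for Junb and 2.03 times for Nr4a1. Ier2, Klf4 and Jun were 1.83, 1.76 and 1.70 times as high, Atf3 was 1.03 times and Fosb 0.598 times. The summed CPM of the 10 genes was 249 in aged mouse 1, 116 to 131 in the other aged mice and 124 to 190 in the young mice. Without Jun and Dusp1, the most abundant of the 10, the sum was highest in young mouse 3, at 116 CPM, then 107 in aged mouse 1 and 87.0 in young mouse 1, and it was 50.6 to 53.5 in the other 5 mice. Young mouse 3 was the highest young mouse in 6 of the 10 genes (Fos, Fosb, Jun, Egr1, Klf4 and Nr4a1), against 23.8% of all genes, and young mouse 1 was the highest in Junb, Ier2 and Dusp1. The rise in young mouse 3 was narrower than that in aged mouse 1. After Fosb and Fos, its Egr1 was 2.23 and its Nr4a1 1.97 times the mean of the other young mice, but Jun, Ier2, Klf4 and Junb were between 1.11 and 1.23 times, Atf3 was 0.867 times and Dusp1 0.751 times. Aged mouse 4 gave yet another mix, as the highest aged mouse in Fosb and Atf3, the second in Nr4a1 and Dusp1 and the lowest in Klf4.

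**Figure D3:**
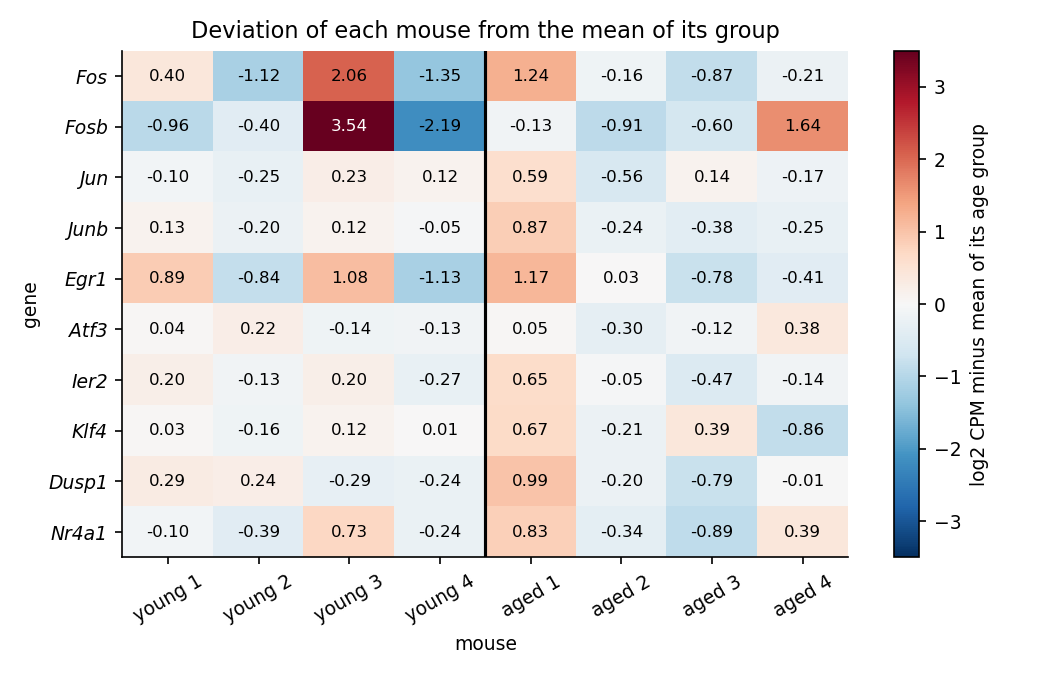
Log2 CPM of each of the 10 genes in each of the 8 mice minus the mean of that mouse's age group, with red above and blue below the group mean. Young mouse 3 is at 3.54 for Fosb and 2.06 for Fos but at -0.29 for Dusp1, whereas aged mouse 1 is at 0.59 to 1.24 for 8 genes and at -0.13 for Fosb.

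With aged mouse 1 left out, 8 of the 10 fitted changes were negative and their median was -0.22, against 0.02 over all genes tested in that fit. With young mouse 3 left out instead, 8 of the 10 were positive and their median was 0.27, against 0.03 over all genes. In the first of these fits 2 of the 10 genes (Junb and Egr1) did not overlap between groups, against 23.9% of all genes, and in the second 0 of 10, against 21.8%. No gene of the 10 was called in either fit, where 3.17% and 0.099% of all genes were called. With both mice left out, an alternative added after the data were seen, Fosb no longer passed the filter, 7 of the other 9 changes were negative with a median of -0.17, and 0.746% of all genes were called. The sign of the genes as a group therefore followed which mouse was in the fit.

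**Figure D4:**
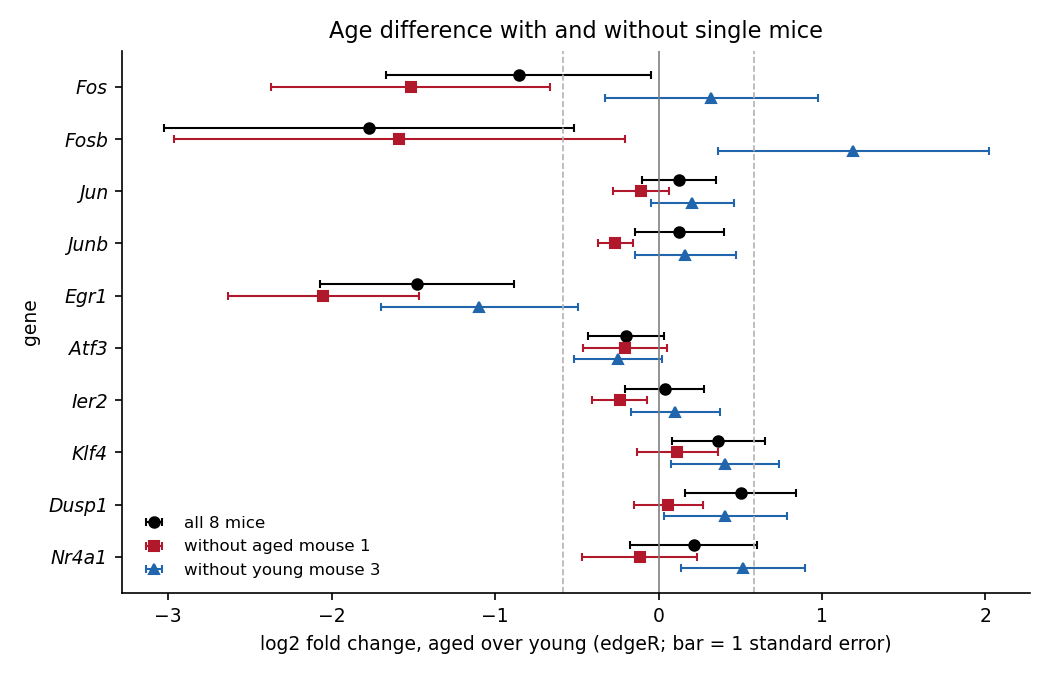
Log2 fold change of aged over young mice by edgeR for each of the 10 genes with all 8 mice (black circles), without aged mouse 1 (red squares) and without young mouse 3 (blue triangles), with bars for 1 standard error and dashed lines at a fold of 1.5. Fosb lies at -1.77, -1.59 and 1.19 in the 3 fits, and Egr1 at -1.48, -2.05 and -1.10.

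The genes moved together only in part. Over the 8 mice, which share strain, sex, tissue and processing and 4 of which share each age, the log2 CPM of Fos had a Pearson r of 0.93 with the mean of the other 9 genes, followed by Nr4a1 (0.83), Ier2 (0.82), Junb (0.68), Egr1 (0.67), Jun (0.49) and Fosb (0.46). Dusp1 (0.32), Klf4 (0.14) and Atf3 (0.13) had the lowest r over the 8 mice. Several of these values rested on aged mouse 1 and young mouse 3. Without aged mouse 1, Jun was at 0.25, Dusp1 at -0.07 and Klf4 at -0.24. Without both mice, Jun was at -0.34, Klf4 at -0.65, Fosb at 0.10 and Egr1 at 0.39, while Dusp1 was at 0.76, Atf3 at 0.55, Fos at 0.77 and Ier2 at 0.80. Of the 45 pairs, 18 had an r above 0.5, or 12 without aged mouse 1, and 1 was below -0.5 (Atf3 with Klf4, -0.53). Junb and Ier2 were among the closest pairs, with an r of 0.92 over 8 mice and 0.84 without aged mouse 1, as were Fos and Egr1, with 0.84 in both. Jun and Dusp1, at 0.34 over 8 mice, were at -0.76 without aged mouse 1. These correlations are descriptions over 8 mice in which 1 or 2 mice carry much of the range. Outside the 10, the genes closest to their mean log2 CPM over the 8 mice were Polr2l (r = 0.95), Ccdc21 (0.94), Rpap2 (0.92), Stox2 (0.92) and Ccdc106 (0.91). Without aged mouse 1 and young mouse 3, the mice farthest from the median, these r were 0.96, 0.80, 0.91, 0.78 and 0.80. These genes were picked for the highest r over the same 8 mice, so the values without those mice are no independent check.

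Other immediate early genes were read from a list of 40, of which 37 passed the filter and Fosl1, Egr2 and Egr3 did not. Of the 37, 2 were called higher and 0 lower in aged mice, beside the 1.17% and 0.889% of all genes, with 32 positive and 5 negative changes and a median log2 fold change of 0.36 against 0.03 over all genes. Myc, the growth-promoting transcription factor, was at 28.8, 12.3, 14.5 and 20.6 CPM across aged mice 1 to 4 and at 6.41, 4.97, 7.34 and 8.51 CPM across young mice 1 to 4. All aged mice were above all young mice, and the log2 fold change was 1.49 (SE 0.28, edgeR adjusted p = 0.0385). Ier5, a regulator of the heat shock response, was at 27.3, 29.9, 35.2 and 23.6 CPM in the aged and at 14.1, 11.4, 18.0 and 18.1 CPM in the young mice. It too did not overlap, with a log2 fold change of 0.91 (SE 0.18, edgeR adjusted p = 0.0390), and aged mouse 1 was not its highest mouse. Without aged mouse 1 both were still called, with log2 fold changes of 1.22 for Myc (adjusted p = 0.0257) and 0.94 for Ier5 (adjusted p = 0.0310). Both calls were lost without aged mouse 3 or any single young mouse, with adjusted p up to 0.115 for Myc and 0.122 for Ier5, both without young mouse 1, and the call of Ier5 was also lost without aged mouse 2.

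The list as a whole leaned on aged mouse 1, which was the highest aged mouse in 32 of its 37 genes and at a summed 2171 CPM against 1325 to 1373 in the other aged and 1274 to 1440 in the young mice. Without that mouse the median log2 fold change of the list was 0.04, with 22 positive and 15 negative changes, and Trib1, a pseudokinase gene named here because of that call, was called lower beside the calls of Myc and Ier5 (log2 fold change -0.70, edgeR adjusted p = 0.0274). Young mouse 3 was the highest young mouse in 9 of the 37. Apart from Ier5, a relative of Ier2, the relatives of the 10 genes on the list were not called. Fosl2 had a log2 fold change of 0.63 (edgeR adjusted p = 0.287), with 90.8 CPM in aged mouse 1 and 27.7 to 39.4 CPM in the other aged mice, and Jund had 0.04 (adjusted p = 0.864). Nr4a2 (0.60, adjusted p = 0.359) and Nr4a3 (1.57, adjusted p = 0.273) were highest in aged mouse 1 as Nr4a1 was. The phosphatase genes ranged from -0.39 for Dusp4 (adjusted p = 0.427) to 1.18 for Dusp2 (adjusted p = 0.0913), with -0.02 for Dusp6 and 0.05 for Dusp5. Klf2 (0.33) and Klf6 (0.40) resembled Klf4 in size, and Ier3 was at 0.07. The smallest p after Myc and Ier5 belonged to Sik1, a kinase gene induced by cAMP, with a log2 fold change of -0.57 (edgeR adjusted p = 0.0731). Sik1 was called lower without aged mouse 4, at -0.74 (edgeR adjusted p = 0.00798). The next were Dusp2 and Zfp36l1 (0.36, adjusted p = 0.0991). Egr2, a relative of Egr1 that was too low to test, was at 2.18 and 1.05 CPM in young mice 3 and 1 and at most 0.688 CPM in the other 6, the same young mice that were high in Egr1.

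None of the factors and kinases that act upstream of the response was called. All 25 genes of that list were tested, and edgeR gave 5 of them an unadjusted p under 0.05. Mapk3, which encodes the kinase ERK1, had the smallest p, with an aged mean of 60.7 ± 2.19 CPM (SD, n = 4) against a young mean of 47.5 ± 1.93 CPM (SD, n = 4). Its log2 fold change of 0.35 (edgeR adjusted p = 0.0375) was below the fold threshold, so it was not called. Srf, the serum response factor itself, was at -0.08 (edgeR adjusted p = 0.729), and Rps6ka5, the kinase MSK1, was at 0.64 (adjusted p = 0.0658). Without aged mouse 4, edgeR called Rps6ka5 higher in aged mice. With all 8 mice, DESeq2 called 1 gene of the list higher. The median change of the list was 0.08, against 0.03 over all genes, and the median SD within groups was 0.13, below the 0.21 of all genes and the 0.53 of the 10 genes. The groups did not overlap in 8 of the 25 genes, beside 18.9% of all genes.

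Genes that respond to glucocorticoids stood highest in the same aged mouse. All 10 genes of that list (such as Fkbp5, Per1, Sgk1 and Zbtb16) were highest in aged mouse 1 among the aged mice, and their summed level there was 3174 CPM against 578 to 925 in the other aged and 728 to 787 in the young mice. Zbtb16, a zinc finger repressor, was called higher in aged mice, at 149, 21.9, 40.7 and 37.6 CPM across aged mice 1 to 4 and under 10 CPM in every young mouse (log2 fold change 3.00, SE 0.57, edgeR adjusted p = 0.0390). Its log2 fold change was 2.11 (SE 0.22, edgeR adjusted p = 0.00573) without aged mouse 1. In that fit Zbtb16 and Cdkn1a were called higher and Fkbp5 lower, beside 3.17% of all genes. The call of Zbtb16 was lost without aged mouse 3 or any single young mouse. Young mouse 3 had the lowest glucocorticoid sum of the young mice, at 728 CPM against 756 to 787. Among the young mice it was the lowest in Fkbp5, Sgk1 and Zbtb16 and in no other gene of the list. In Klf9 it was the highest young mouse, at 292 CPM against 253 to 258 CPM. Its summed endothelium, smooth muscle and fibroblast markers were also the lowest of the young mice (449, 95.4 and 285 CPM against at least 464, 99.4 and 290). In each of these lists some single markers were lower in another young mouse, as Kdr, Myh11 and Col1a1 were in young mouse 4. The summed proximal tubule markers of young mouse 3, at 21526 CPM, lay within the young range. The part of these genes and markers in the levels of the 10 genes was not tested.

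Heat shock genes also respond to the handling of tissue. Of 8 such genes, 0 were called higher and Hsp90aa1, a chaperone gene, was called lower in aged mice, with an aged mean of 169 ± 50.9 CPM (SD, n = 4) against a young mean of 365 ± 40.1 CPM (SD, n = 4). Its log2 fold change was -1.11 (SE 0.20, edgeR adjusted p = 0.0361), and its call was lost without aged mouse 2 or any single young mouse. Their summed level was 562 CPM in aged mouse 1, within the 419 to 1175 CPM of the other aged mice, and 910 CPM in young mouse 3, within the 883 to 1088 CPM of the other young mice. Hspa1a and Hspa1b are nearly identical copies whose counts may be split between them. Aged mouse 1 was the highest aged mouse in 2 of the 8 and young mouse 3 the highest young mouse in 1 of the 8.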

How the data were processed

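RNA was extracted with TRIzol from kidney cortex, depleted of ribosomal RNA and made into stranded libraries that were read as paired ends of 100 bp. Per the labels and the methods, the authors ran CASAVA 1.8.2, aligned the pairs with TopHat2 to mm9, handled the alignments with SAMtools and counted pairs by strand with HTSeq on RefSeq genes, and they deposited raw counts per gene without normalization. Versions other than that of CASAVA are not given in the sources used here. Each library's own table was used, and a joint table with short column names was not used here.

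Lines for pairs assigned to no gene closed each table and held 59.4% to 64.5% of its total, including 34.3% to 39.1% for pairs aligned to several places. Neither library sizes nor tests used them. Libraries of a group differed by far more than counting noise, with a chi-square per gene of at least 8.98 (over 14461 genes), so none was a duplicate.

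Counts were analyzed in R 4.3.3 with edgeR 4.0.16 (quasi-likelihood test, TMM, filterByExpr with a minimum count of 10, no covariate) over all 8 libraries, with Benjamini-Hochberg adjustment over the 13944 genes tested and calls at an adjusted p below 0.05 with a fold above 1.5. Standard errors were derived from the F statistic of the fit. Log2 CPM used a prior count of 2. DESeq2 1.42.0 and limma 3.58.1 (voom with quality weights) were alternatives, as were other scalings, filters, thresholds, the replicate number as a block and leaving out each mouse. The script was tested on simulated data. Groups and replicate numbers came from the labels, and the p-values weigh the age difference against the variation between these mice. The floor of 3 counts covers counting error only.

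Gene positions and exon lengths were read from GENCODE on NCBIM37 (mm9) and promoter windows from RefSeq on GRCm38.p6. Overlapping exons of all transcripts of a gene were merged before exons and their lengths were counted. The text names the 10 genes, every gene called on the fixed lists, the relatives of the 10 genes, up to 3 other list genes with the smallest p and the 5 genes most correlated with the mean of the 10, and a gene outside that rule is named with the reason. The 10 genes and all lists were chosen with earlier results of these data known.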

Additional observations from a re-analysis of the deposited data

Results flagged for a closer look

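A mouse was set apart where its gap to the nearest mouse of its group, divided by the range of the group, exceeded Dixon's 95% critical value for 4 samples. Of 54 groups tested, 7 passed. Chance would give about 2.7 if the groups were independent and normally distributed. They were not independent, since all came from the same mice and the sum of the 10 genes holds genes that were tested singly. Among the 20 groups that belong to the 10 genes 3 passed.

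Fosb was far from the rest in both ages. Young mouse 3, at 12.2 CPM, had a gap of 0.953 of the young range to the next young mouse at 0.688 CPM. Aged mouse 4, at 2.45 CPM, had a gap of 0.853 of the aged range to the next aged mouse at 0.638 CPM.

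Aged mouse 1 was far from the other aged mice in Junb, at 31.9 against 14.7 CPM for the next mouse, a gap of 0.931 of the range. The same held for the summed CPM of the 10 genes, at 249 against 131 CPM (0.891), for the summed CPM of the other immediate early genes, at 2171 against 1373 CPM (0.943), and for that of the glucocorticoid genes, at 3174 against 925 CPM (0.866).

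Young mouse 4 had the highest summed CPM of the heat shock genes among the young mice, at 1088 against 914 CPM for the next mouse, a gap of 0.850 of the range.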

How the results depend on the processing

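None of the 10 genes was called in any of the 178 values obtained for them under 18 alternatives, of which 161 kept the direction of the change and 17 reversed it. Fosb gave no value with at least 10 counts required in every sample, nor with both aged mouse 1 and young mouse 3 left out, which was added after the data were seen. DESeq2 gave Fosb a log2 fold change of -1.81 but no adjusted p, so Fosb could not be called there. Under voom with quality weights the log2 fold changes were -0.084 for Jun, -0.18 for Junb, -0.18 for Ier2 and -0.12 for Nr4a1. With both mice left out they were -0.022 for Jun, -0.22 for Junb, -0.17 for Ier2 and -0.029 for Dusp1. With 1 mouse left out at a time they ranged from -1.52 to 0.32 for Fos, from -2.80 to 1.19 for Fosb, from -0.11 to 0.28 for Jun, from -0.26 to 0.26 for Junb, from -0.24 to 0.18 for Ier2 and from -0.12 to 0.52 for Nr4a1.

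The count over all genes, 287 here, was 488 with library size only (368 higher and 120 lower, against 163 and 124), a scaling under which the median change over all genes was 0.14 in place of 0.03. It was 873 with DESeq2, 483 with voom, 770 at an adjusted p below 0.1, 104 without both mice and between 8 (without young mouse 1) and 733 (without aged mouse 4) with 1 mouse left out. Of the other immediate early genes, 0 to 3 were called with 1 mouse left out and 1 (Trib1, lower) without both mice. Of the upstream genes 1 was called with library size only, with DESeq2, with no fold threshold and at an adjusted p below 0.1, and 0 to 1 with 1 mouse left out. The cause of these shifts was not tested.

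The replicate numbers were not used as pairs in the main fit. The deviations of same-numbered mice correlated at 0.21, 0.04, 0.20 and -0.03. Mice of different numbers were not compared in this way, so these values cannot show whether the numbers pair the mice. With the number as a replicate block 130 genes were called over all, 0 of the 10 genes and 1 of the other immediate early genes (Ier5 had an adjusted p of 0.0565), and Ier2 was at -0.0045. With 2 to 180 counts per mouse, Fosb is limited by depth, and so is Atf3 with 15 to 32.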
